A study of Mus musculus with 4 samples.

Results

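The 10 genes described here (GZMA, GZMB, GZMH, GZMK, GZMM, PRF1, GNLY, NKG7, CST7 and FGFBP2) encode components of cytotoxic granules or genes used as markers of the lymphocytes that carry them. They were chosen by name, 10 of the 33538 human genes in the count matrices, and were followed across CD8 T cells, CD4 T cells, FOXP3+ T cells and natural killer (NK) cells. Cytotoxic lymphocytes kill a target by releasing granules at the contact site, where perforin opens the target membrane and granzymes, a family of serine proteases, enter and cleave intracellular substrates. Granzyme B is the classical inducer of apoptosis among them, granzyme K is typical of early or memory CD8 T cells, and granzyme A is widely shared. Granulysin is a membrane-lytic protein that is active against microbes, and regulatory T cells, which carry FOXP3, are known mainly for suppression.

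Droplet-based 3' scRNAseq was performed on human CD45+ cells from huNSG-SGM3 mice, with 1 library for each of 4 samples, namely blood of naïve, of sham and of SCI mice and injured cord of SCI mice. All hosts were NOD.Cg-Prkdcscid, IL2rgtm1Wjl mice, which lack functional lymphocytes of their own, with the transgene Tg(CMV-IL3,CSF2,KITLG)1Eav/MloySzJ, which drives these human cytokines from a CMV promoter, and had been irradiated and engrafted with human cord blood CD34+ cells. The naïve mice had no surgery, the sham mice a T9 laminectomy and the SCI mice a T9 spinal cord injury, with collection 7 days after surgery and a labelled age of 15 weeks in every group. Naïve and sham hosts were male, whereas the SCI libraries came from male and female hosts pooled, and only cord cells passed over magnetic beads before sorting. Each library holds the pooled cells of several animals. Host sex and injury cannot be told apart between the SCI and the other libraries, nor bead enrichment and tissue between cord and blood.

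After quality control, 6323 cells of naïve blood, 4645 of sham blood, 5934 of SCI blood and 118 of SCI cord were kept, with a median of 3697, 5230, 4655 and 9331 human UMIs (unique molecular identifiers, each counting a captured molecule). Human barcodes shared between libraries numbered between 0 and 10 for any pair. Cells were classed without use of the 10 genes. T cells had a UMI of CD3D, CD3E or CD3G and none of the B cell genes CD79A and MS4A1. CD8 T cells further had CD8A or CD8B and neither CD4 nor FOXP3, CD4 T cells had CD4 and neither CD8 gene nor FOXP3, and FOXP3+ T cells had FOXP3 and no CD8 gene. In the same order of libraries, this gave 733, 647, 1279 and 15 CD8 T cells, 954, 1043, 1099 and 25 CD4 T cells, and 347, 397, 216 and 13 FOXP3+ T cells. A further 2033, 1304, 1591 and 16 T cells fell in none of these classes and were not followed. In naïve, sham and SCI blood they held 3483 of 7734, 2835 of 8884 and 4318 of 14145 GZMA UMIs. Of the GZMB UMIs they held 65 of 311, 245 of 756 and 218 of 817. The gated classes thus do not account for all UMIs of these genes. B cells (CD79A and MS4A1 without CD3 genes or KLRF1; 1178, 534, 830 and 7) served as the class that should lack these genes. A CD79A UMI was present in 15.4%, 20.8% and 20.8% of CD3+ CD8+ cells of naïve, sham and SCI blood before the B cell genes were excluded, against 8.11%, 5.50% and 6.01% of CD3+ CD4+ cells, so that this exclusion took more CD8 than CD4 T cells. Among CD8 T cells as gated, the monocyte markers CD14 and CSF1R were at 0 in all 4 libraries and the summed monocyte markers stood at 7.76 to 19.5 CPM (counts scaled to a total of 1000000 over the class).

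At equal depth GZMK was the most widely detected of the 10 genes in CD8 T cells of blood, GZMA and NKG7 followed, and GZMB, GZMH and FGFBP2 were each found in few cells. Because depth differed between libraries, every cell was thinned to 1000 human UMIs before shares of cells with a UMI were compared, and all intervals are exact at 95% and cover counting error only. After thinning, GZMK had a UMI in 60%, 56.1% and 61.7% of CD8 T cells of naïve, sham and SCI blood, and in 11 of 15 cells of SCI cord. GZMA was found in 38.3%, 42.3% and 45.7% of blood CD8 T cells, and in 9 of 15 cord cells. The naïve and SCI blood intervals for GZMA (34.8 to 42.0% and 42.9 to 48.4%) did not overlap, while those for GZMK (56.4 to 63.6% and 59.0 to 64.4%) did. Without thinning the order was less clear, as GZMA was found in 71.3% and GZMK in 68.6% of sham CD8 T cells, and GZMM in more CD8 T cells than NKG7 in sham (64.0 and 61.4%) and SCI blood (68.3 and 65.1%). GZMM, which encodes a granzyme found largely in innate-like and effector lymphocytes, had a UMI in 28.6%, 24.7% and 27.5% of blood CD8 T cells.

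GZMB and its close relative GZMH were rare in blood CD8 T cells. GZMB was detected in 3.41%, 3.25% and 3.99% of thinned CD8 T cells of naïve, sham and SCI blood, and in 5.59%, 6.65% and 5.71% without thinning. GZMH was detected in 2.86%, 6.03% and 6.10% after thinning, the naïve interval (1.78 to 4.35%) lying just below that of SCI blood (4.85 to 7.55%). How the counting treated reads that match both of these related genes is not given in the sources used here, so that their separate levels are uncertain.

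Of the membrane-lytic genes, PRF1 (perforin) had a UMI in 9.55%, 8.50% and 7.04% of thinned CD8 T cells of naïve, sham and SCI blood, and in 26.1%, 24.1% and 19.9% without thinning. GNLY (granulysin) was found in 10.9%, 10.7% and 13.1% after thinning. Where GNLY was present it was abundant, with a mean of 28.3, 52.3 and 33.9 UMIs per unthinned CD8 T cell that had any, against 2.16, 1.89 and 1.78 for PRF1. Among the remaining genes, NKG7, which encodes a granule membrane protein needed for degranulation, had a UMI in 37.7%, 30.9% and 32.5%. CST7, which encodes cystatin F, an inhibitor of the cathepsins that activate granzymes, was found in 19.0%, 11% and 9.77%. FGFBP2, a secreted protein used as a marker of cytotoxic cells, was found in 2.86%, 1.08% and 1.72%. For CST7 the naïve interval (16.2 to 22.0%) lay above those of sham (8.67 to 13.6%) and SCI blood (8.20 to 11.5%).

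**Figure D1:**
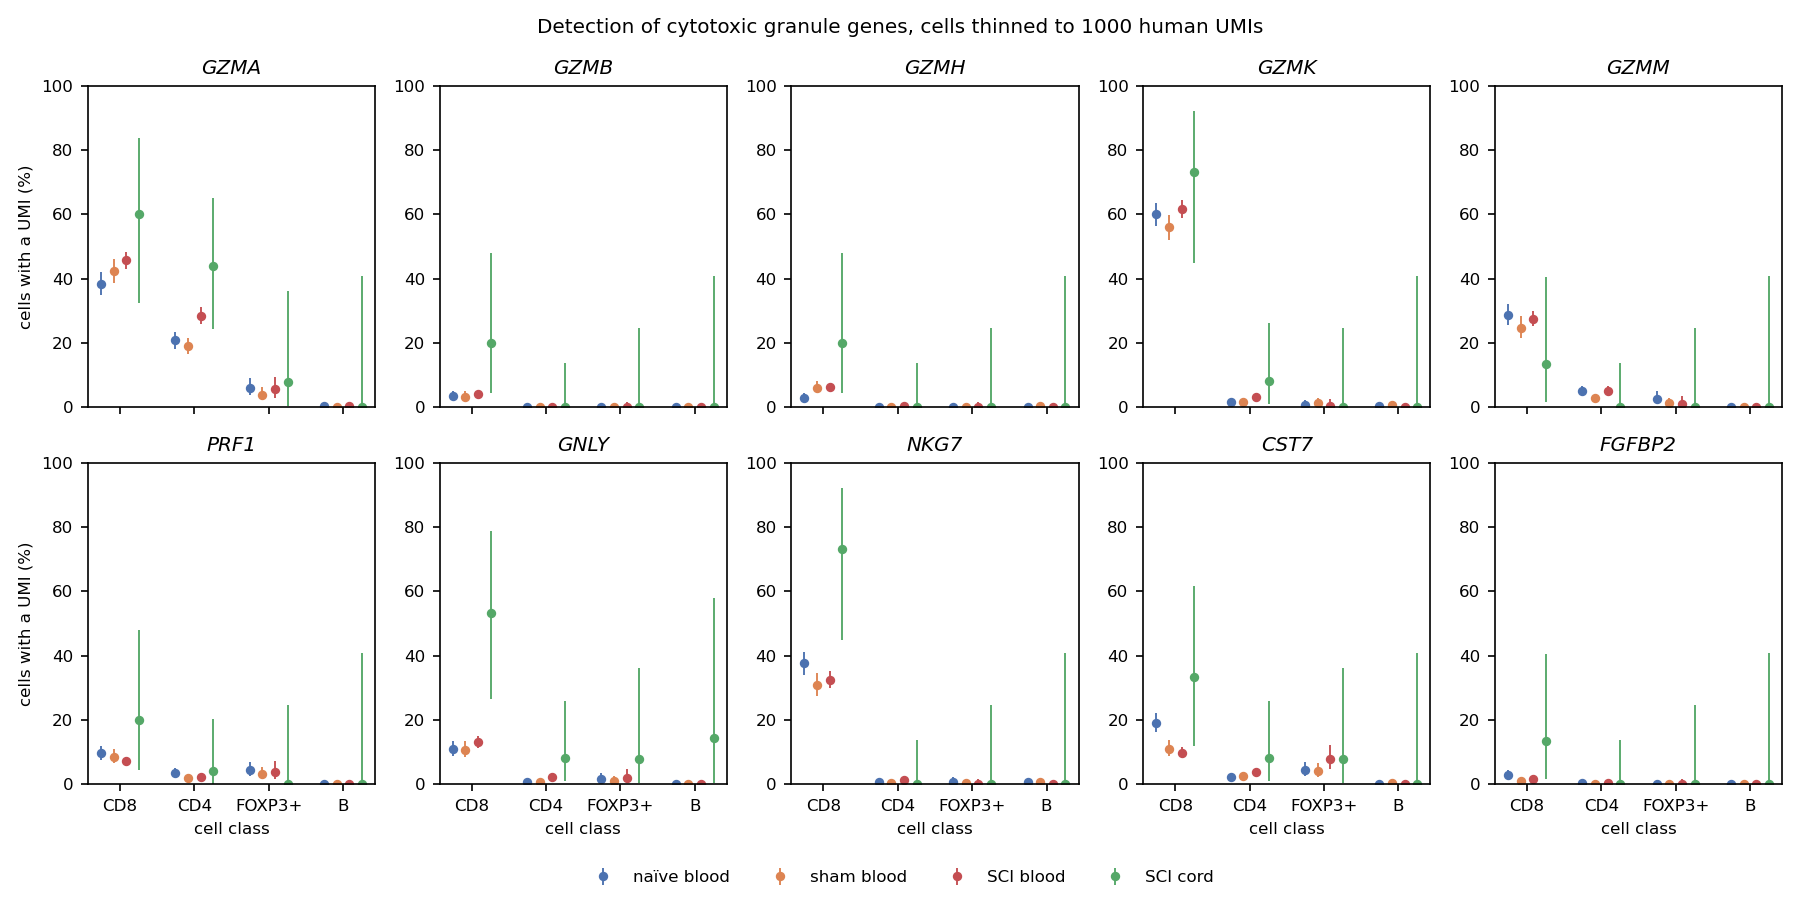
Percent of cells with a UMI of each of the 10 genes in CD8, CD4, FOXP3+ T cells and B cells, after thinning to 1000 human UMIs. Points are single libraries and bars exact 95% intervals for counting error. GZMK spans 56.1 to 61.7% of blood CD8 T cells and at most 3.18% of blood CD4 T cells, while GZMA reaches 19.0 to 28.5% of blood CD4 T cells.

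No single one of the 10 genes had a UMI in more than 0.562% of thinned B cells of a blood library, and 19 of 1178, 8 of 534 and 8 of 830 B cells of naïve, sham and SCI blood had a UMI of at least 1 of them, at median depths of 3619.5, 5665 and 4890 UMIs, close to the 3627, 5179 and 4374 UMIs of CD8 T cells. A PRF1 UMI was seen in 0 thinned B cells of each blood library, which allows shares of up to 0.255%, 0.562% and 0.361%. In CD4 T cells, at median depths of 3850.5, 5611 and 5159 UMIs, GZMB, GZMH, FGFBP2 and, in naïve and sham blood, NKG7 stood at or below 0.562% of thinned cells, that is, within the range seen in B cells.

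CD8 and CD4 T cells were compared on UMIs summed per class within each of the 3 blood libraries, with the library as a block in edgeR's quasi-likelihood test and Benjamini-Hochberg adjustment over 11106 genes. All 10 genes were higher in CD8 T cells, where 13.9% of all genes tested were called higher. GZMB had 93.1, 143 and 122 CPM in CD8 T cells of naïve, sham and SCI blood and 0.306, 1.56 and 2.96 CPM in CD4 T cells, a log2 fold change of 6.05 ± 0.30 (SE, n = 3 libraries; edgeR adjusted p = 2.3e-13). GZMK had 2384, 2269 and 2337 CPM against 52.7, 37.9 and 79.7 CPM, a log2 fold change of 5.31 ± 0.19 (edgeR adjusted p = 3.6e-17). No library of one class overlapped with the other for any of these values. The log2 fold changes were 5.62 for NKG7, 5.49 for GZMH, 4.70 for FGFBP2, 4.48 for GNLY, 3.01 for GZMM, 2.33 for CST7 and 1.81 for PRF1 (edgeR adjusted p between 1.6e-09 and 1.2e-16).

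GZMA separated these classes least. It had 990.3, 1045 and 1179.8 CPM in CD8 T cells and 454, 420.4 and 653 CPM in CD4 T cells, a log2 fold change of 1.02 ± 0.14 (edgeR adjusted p = 3.2e-06). A GZMA UMI was present in 20.8%, 19.0% and 28.5% of thinned CD4 T cells of naïve, sham and SCI blood. Of the unthinned CD4 T cells with GZMA, 62.4%, 60% and 50.7% had no UMI of the other 9 genes, whereas among CD8 T cells with GZMA these shares were 3.90%, 4.77% and 1.69%. KLRB1, the gene of the CD161 receptor of innate-like and memory T cells, was found less often in thinned CD4 T cells with GZMA (21.7%, 22.2% and 12.8%) than in those without (34.9%, 34.3% and 29.1%), which is given as a description of cells within each library. CD4 T cells also stood above B cells for 8 of the 10 genes (28.1% of all genes were called higher), with GZMA at a log2 fold change of 7.35, CST7 at 6.06, GZMM at 5.32 and PRF1 at 5.32. The 8 included GZMB and FGFBP2 (edgeR adjusted p = 0.040 and 0.033), which rested on 1, 1 and 2 and on 4, 2 and 3 CD4 T cells of naïve, sham and SCI blood, and the count was 7 to 10 with each library left out. GZMH (1.60, edgeR adjusted p = 0.10) and NKG7 (1.19, edgeR adjusted p = 0.054) did not pass.

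Few CD4 T cells carried several of these genes. Unthinned, 53 of 954, 54 of 1043 and 102 of 1099 CD4 T cells had 3 or more of the 10 genes, against 69.2%, 68.2% and 74.7% of CD8 T cells. Scrublet marked 5.66%, 3.70% and 7.84% of these CD4 T cells as doublets and 4.88%, 2.83% and 3.51% of the remaining CD4 T cells, and their median depths were 5408, 6783 and 6085 UMIs against 3823, 5558 and 5075. Whether doublets or depth contribute to these cells was not tested.

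FOXP3+ T cells had a different set of these genes from CD8 T cells. GZMB, GZMH and FGFBP2 had 0 UMIs in all FOXP3+ T cells of the 3 blood libraries and of cord. With a floor of 3 counts per library, GZMB was at least 33.7-fold, 84.1-fold and 35.1-fold lower in FOXP3+ T cells than in CD8 T cells of naïve, sham and SCI blood, and GZMH at least 43.2-fold, 104-fold and 54.4-fold. Relative to CD4 T cells, whose levels of these 3 genes were themselves at most 8.24 CPM in blood and 22.4 CPM (GZMH, 4 UMIs) in cord, no fold is given.

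PRF1 and CST7 were higher in FOXP3+ T cells than in CD4 T cells, 2 of the 10 genes where 6.61% of all genes were called higher. A UMI of IL2RA, CTLA4, IKZF2 or TIGIT, further genes of regulatory T cells, was found in 49.8%, 57.1% and 41.6% of CD4 T cells of naïve, sham and SCI blood. In CD8 T cells these shares were 47.7%, 53.0% and 36.6%. Whether regulatory T cells without a FOXP3 UMI were among the CD4 T cells was not tested. PRF1 had 71.0, 52.2 and 53.2 CPM in FOXP3+ T cells of naïve, sham and SCI blood and 45.3, 31.7 and 37.0 CPM in CD4 T cells, a log2 fold change of 0.66 ± 0.18 (SE, n = 3 libraries; edgeR adjusted p = 0.013). CST7 had 93.1, 58.5 and 98.3 CPM against 52.4, 33.0 and 57.9 CPM, a log2 fold change of 0.80 ± 0.22 (edgeR adjusted p = 0.016). Levels were higher in FOXP3+ T cells within each of the 3 blood libraries for both genes, and the values of the classes did not overlap across these libraries. In cord they were lower in FOXP3+ than in CD4 T cells, at 34.5 and 55.9 CPM for PRF1 (4 and 10 UMIs) and 86.3 and 128.7 CPM for CST7 (10 and 23 UMIs). Both calls were lost under DESeq2 (adjusted p = 0.25 and 0.57) and without the library block (adjusted p = 0.10 and 0.13). PRF1 also lost its call without the naïve (edgeR adjusted p = 0.064) or the sham library (edgeR adjusted p = 0.054).

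These genes were spread over many FOXP3+ T cells. Without thinning, 65 of 347, 79 of 397 and 39 of 216 FOXP3+ T cells had a PRF1 UMI and 69, 68 and 53 had a CST7 UMI, with at most 5.19% of the PRF1 UMIs and 7.92% of the CST7 UMIs of a library in 1 cell. CST7 was detected in 26.2%, 21.5% and 23.1% of FOXP3+ T cells with PRF1 and in 18.4%, 16.0% and 24.9% of those without. The log2 odds ratio of their co-detection was 0.66, 0.54 and -0.10, so that its direction was not shared by the libraries. FOXP3+ T cells with PRF1 or CST7 were deeper than those with neither (median 3596, 5013 and 5100 UMIs against 3190.5, 4199 and 3820) and had IL2RA, a marker of regulatory T cells, in 39.3%, 46.9% and 44.6% of cells against 39.1%, 39.0% and 39.1%.

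GZMA, GZMK and GZMM were lower in FOXP3+ T cells than in CD4 T cells, 3 of the 10 genes where 5.32% of all genes were called lower. GZMA had 104, 107 and 127 CPM in FOXP3+ T cells, every value below those of CD4 T cells, a log2 fold change of -2.12 ± 0.17 (edgeR adjusted p = 1.3e-09). The log2 fold changes were -1.26 ± 0.27 for GZMK (edgeR adjusted p = 0.0016) and -1.25 ± 0.21 for GZMM (edgeR adjusted p = 9.2e-05). GNLY (-0.63, edgeR adjusted p = 0.39) and NKG7 (-1.32, edgeR adjusted p = 0.28) did not pass, with the GNLY UMIs of FOXP3+ T cells resting on few cells, as 56 of 65 UMIs in sham blood were in 1 cell. Set against B cells, FOXP3+ T cells were higher for 6 of the 10 genes (25.2% of all genes were called higher), with CST7 at a log2 fold change of 6.87, PRF1 at 5.97, GZMA at 5.23, GZMM at 4.07, GNLY at 2.32 and GZMK at 1.99.

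NK cells, defined by KLRF1 without CD3D, CD3E and CD3G, were scarce, with 2, 6 and 15 cells in the naïve, sham and SCI blood libraries and 1 cell in cord. Of the 15 cells of SCI blood, 9 held 2 or more UMIs of CD79A and MS4A1 and no UMI of the 10 genes, and the cord cell held a UMI of CD14 or CSF1R. The remaining 14 blood cells had TYROBP, an adaptor of NK receptors, in 2, 6 and 6 cells of naïve, sham and SCI blood and FCER1G in 1, 6 and 5, while NCAM1 was at 0. Of the T cell genes, TRAC was found in 1 of these cells, in sham blood, and CD2 or TRAC in 50% of the sham cells. CD8A was found in 50% of the naïve cells. TRDC, TRGC1 or TRGC2 had a UMI in 50% of the naïve and 100% of the sham cells. Whether T cells with undetected CD3 genes are among the 14 cells was not tested. PRF1 and NKG7 were found in 14 of these 14 cells, GNLY in 13, GZMB in 11, CST7 in 11, GZMM in 10, GZMA in 8, FGFBP2 in 7, GZMH in 6 and GZMK in 5. Per cell, GNLY had between 0 and 131 UMIs with a median of 38, NKG7 between 5 and 37 with a median of 16.5, and GZMB between 0 and 26 with a median of 4. GZMK had a median of 0 UMIs, and its highest count, 9 UMIs, was in the sham cell that had neither GZMB nor GNLY.

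**Figure D2:**
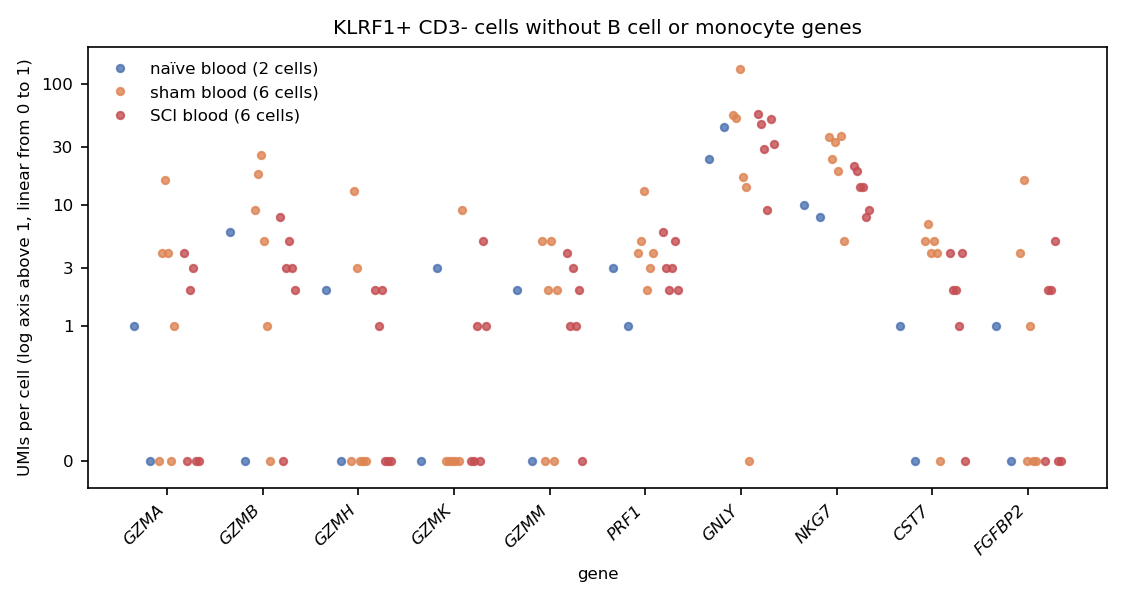
UMIs of each gene in the 14 KLRF1+ cells without CD3 genes that had fewer than 2 UMIs of CD79A and MS4A1 and none of CD14 and CSF1R, by blood library. Each point is a cell; the vertical axis is logarithmic above 1 UMI. NKG7 and PRF1 are above 0 in all 14 cells, GZMK in 5.

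Summed over all cells of the gate, GZMB stood at 2149.8, 3318 and 413 CPM in NK cells of naïve, sham and SCI blood, above every CD8 T cell value, from 6, 59 and 21 UMIs. GZMK stood at 1075, 506 and 138 CPM, below every CD8 T cell value, from 3, 9 and 7 UMIs. Cells holding at least 1 UMI of CD79A or MS4A1 gave 77.5% of the UMIs of the SCI blood sum, and without them GZMB stood at 1656, GZMK at 523 and GZMA at 784 CPM there, while the naïve and sham sums held no such cell. With these cells included, GZMA, at 358, 1406 and 177 CPM, overlapped with the 990.3 to 1179.8 CPM of CD8 T cells. In the same test as above, 5 genes were called higher in NK than in CD8 T cells (1.77% of all genes), with log2 fold changes of 3.19 for FGFBP2, 2.92 for GZMB, 2.26 for PRF1, 2.08 for GNLY and 1.57 for NKG7 (edgeR adjusted p between 9.2e-06 and 0.0072). GZMK (-3.52, edgeR adjusted p = 7.5e-07) and GZMA (-1.54, edgeR adjusted p = 0.0070) were called lower (2.98% of all genes).

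The NK sums were small (2770, 17657 and 50591 UMIs), and the median gene had a log2 fold change of -0.72, which moved between -3.09 and 0.13 with the setting. Relative to the median, the 5 higher genes stayed above 0 in every setting tried, GZMB at 3.65 and between 2.65 and 6.77. GZMK stood at -2.80 and below 0 in every setting except without SCI blood, where it was at 0.25. GZMA stood at -0.82, but at 0.69 without the cells holding CD79A or MS4A1 and at 2.52 without SCI blood. Its direction thus depended on the scaling, while its fitted log2 fold change was below 0 in every setting (-0.89 and -0.58 in these). Without SCI blood the low median (-3.09) raised this measure for every gene, GZMM standing at 3.11, so that a value above 0 there says little. GZMH (adjusted p = 0.68), GZMM (adjusted p = 0.35) and CST7 (adjusted p = 0.36) did not pass in edgeR, and their fitted direction depended on the setting.

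Genes known to act in granule handling and release and in cytotoxic differentiation were read from a list of 32, of which 31 could be tested. In CD8 against CD4 T cells, 15 were higher (13.9% of all genes) and 5 lower (15.0%). Among granule matrix genes, CTSW, a cathepsin of cytotoxic cells, was higher (log2 fold change 5.70), whereas SRGN, the proteoglycan that packs granule contents (-0.71), and CTSC, which activates granzymes (-0.27), were lower. Of the 7 genes of granule membrane and release, LYST was higher (0.95), LAMP2 was lower (-0.36) and the other 5 did not pass. Of the 10 regulators, 6 were higher, among them EOMES (4.96), ZNF683 (4.80), TBX21 (2.17) and RUNX3 (1.40), and PRDM1 was lower (-1.11). Of the 5 surface genes tested, 4 were higher, among them KLRD1 (3.76) and CX3CR1 (1.58). The death ligand FASLG (1.06) and IFNG (1.64) were higher and TNFSF10 was lower (-1.18).

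In FOXP3+ against CD4 T cells 6 of the 31 genes were higher (6.61% of all genes) and 9 lower (5.32%). CTSC (0.65), SERPINB9 (0.45), the inhibitor of granzyme B, STX11 (1.17), which acts in granule fusion, PRDM1 (1.85), IKZF2 (1.56) and RUNX3 (0.47) were higher. The 9 lower genes included TCF7 (-2.17), KLRG1 (-1.60) and TNFSF10 (-1.23). In NK against CD8 T cells 9 were higher (1.77% of all genes) and 3 lower (2.98%), with HOPX (2.75), ZEB2 (2.85) and FASLG (4.24) among the higher and TCF7 (-2.36), BCL11B (-4.72) and IKZF2 (-2.94) the lower genes, again against a median of -0.72. Without the cells holding CD79A or MS4A1, 9 were higher and 2 lower against a median of -1.58, with HOPX at 3.46, ZEB2 at 2.47, FASLG at 4.77, TCF7 at -1.85 and BCL11B at -4.08, and IKZF2 no longer passed (-2.35, edgeR adjusted p = 0.14).

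Within CD8 T cells of blood, most pairs of these genes were found together more often than if independent, and some less often. For each of the 45 pairs, the odds ratio of co-detection was computed in thinned cells of each blood library, with 0.5 added to each count and with no p-value, since cells of a library are not replicates. It was above 1 in all 3 libraries for 32 pairs, below 1 in all 3 for 5 pairs and mixed for 8. How often pairs of other genes with like detection share a direction was not computed, so that these counts have no background beside them. All 5 pairs below 1 contained GZMM, with GZMB, GZMH, GNLY, PRF1 and FGFBP2 as its partners. The odds ratios over the libraries were 0.50 to 0.77 with GZMB, 0.46 to 0.81 with GZMH and 0.45 to 0.77 with GNLY. With PRF1 they were 0.73 to 0.97, near independence, with 13 or more cells holding both. With FGFBP2 they were 0.20 to 0.82, resting on as few as 0 such cells in a library.

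GZMB was found almost wholly within the cells that had GNLY. Of the thinned CD8 T cells with GZMB, 23 of 25, 21 of 21 and 51 of 51 (naïve, sham and SCI blood) also had GNLY, where 2.73, 2.24 and 6.66 such cells would be found if the genes were independent. NKG7 was likewise found in 23, 21 and 51 of them, against 9.41, 6.49 and 16.6 under independence. GZMB and GZMH were found together in 13, 18 and 43 cells, against 0.716, 1.27 and 3.11. The mean log2 odds ratio over the libraries was 8.56 ± 1.65 (SD, n = 3) for GZMB with GNLY, 7.16 ± 0.69 for GZMH with GNLY, 7.04 ± 0.50 for GZMB with GZMH and 6.20 ± 2.80 for GNLY with FGFBP2. PRF1 was found with GZMB in 13 of 25, 7 of 21 and 31 of 51 cells.

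GZMK followed neither course. It was found with GZMA more often than under independence in every library, in 205, 196 and 437 thinned CD8 T cells against 169, 154 and 360.3, and likewise with GZMM (mean log2 odds ratio 0.94 ± 0.37) and NKG7 (1.19 ± 0.56). For GZMK with GZMB the log2 odds ratio was 0.74, 0.93 and -0.43 (naïve, sham and SCI blood), a mean of 0.42 ± 0.73, so that its direction was not shared by the libraries. For GZMK with GNLY it was 0.88, 1.02 and -1.05. In SCI blood, GNLY was thus found in 9.76% of thinned CD8 T cells with GZMK and 18.4% of those without, whereas in naïve blood these shares were 13.2% and 7.51% and in sham blood 13.5% and 7.04%.

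**Figure D3:**
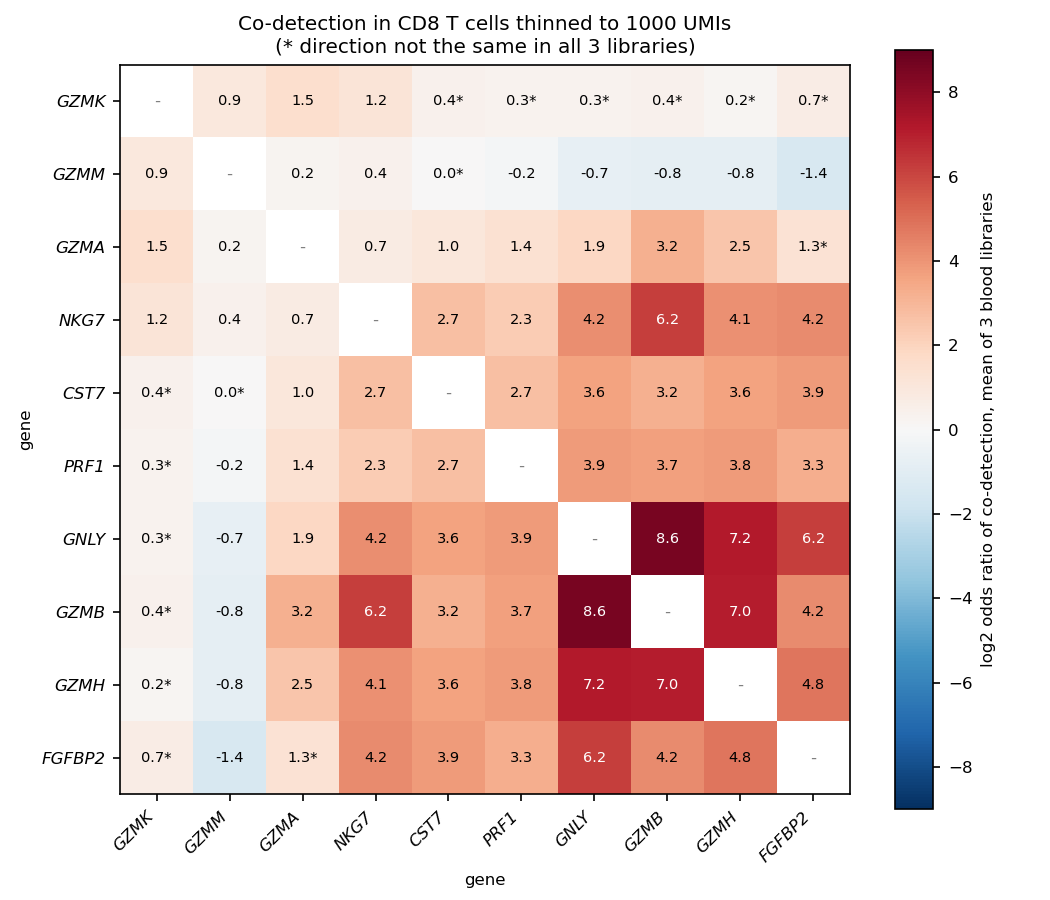
Log2 odds ratio of co-detection for each pair of the 10 genes in CD8 T cells thinned to 1000 UMIs, as the mean of the 3 blood libraries; positive values (red) mark genes found together more often than if independent, negative values (blue) less often. The pairs among GNLY, GZMB, GZMH and FGFBP2 lie between 4.25 and 8.56, and the asterisks mark the 8 pairs whose direction differed between libraries, 6 of them with GZMK.

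CD8 T cells were then divided by GZMK and by any of GZMB, GZMH, GNLY and FGFBP2, a grouping chosen after the co-detection had been seen. In thinned CD8 T cells of naïve, sham and SCI blood, GNLY was found in 80, 69 and 167 cells and GZMB in 25, 21 and 51. The group of these genes, called the GZMB group, thus consists mostly of cells with GNLY, many of them without a GZMB UMI. Cells with GZMK alone made up 50.5%, 48.4% and 55.5% of thinned CD8 T cells of naïve, sham and SCI blood. Cells with both kinds made up 9.55%, 7.73% and 6.18%, and cells with neither 36.7%, 40.5% and 31.1%. Cells with the GZMB group and no GZMK came to 24 of 733 (3.27%, 2.11 to 4.83%) in naïve, 22 of 647 (3.40%, 2.14 to 5.10%) in sham and 92 of 1279 (7.19%, 5.84 to 8.75%) in SCI blood. The SCI blood share lay above those of naïve and sham blood beyond counting error, with 1 library per condition and hence no measure of the spread between animals. Doublet marks were carried by 12.5%, 0% and 3.26% of these cells and by 15.6%, 8.78% and 9.05% of the cells with neither.

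**Figure D4:**
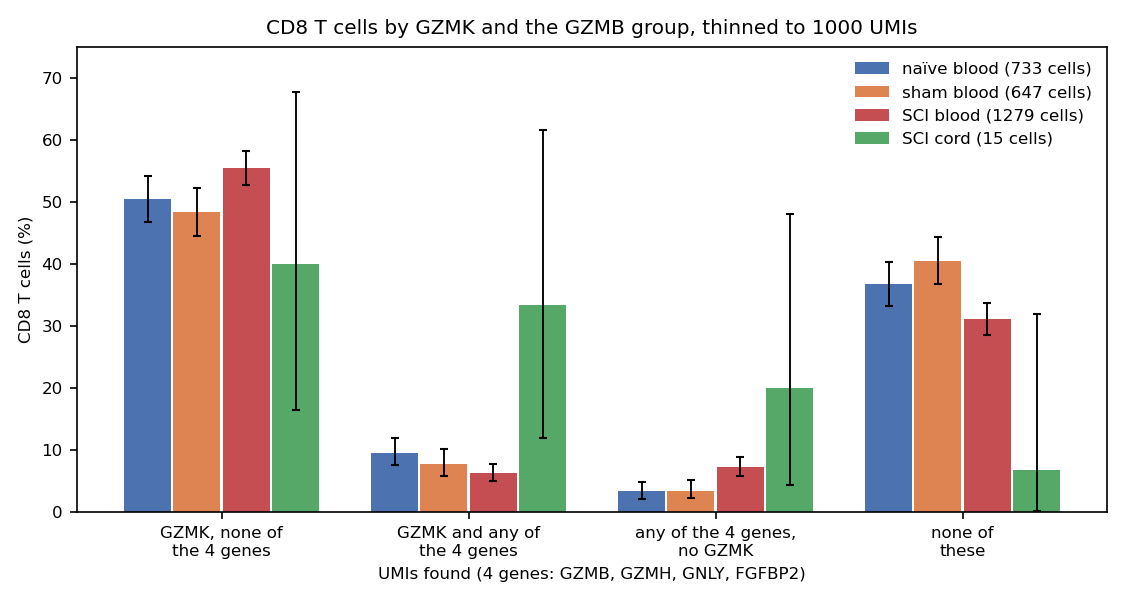
Percent of CD8 T cells thinned to 1000 UMIs by whether a UMI of GZMK and of any of GZMB, GZMH, GNLY and FGFBP2 was found, with exact 95% intervals for counting error. Cells with the latter and no GZMK take 3.27%, 3.40% and 7.19% of naïve, sham and SCI blood.

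Without thinning, the GZMB group without GZMK held 20, 16 and 70 cells (2.73%, 2.47% and 5.47% of CD8 T cells) and GZMK alone 411, 372 and 845. Of the other genes, PRF1 was at 304, 265 and 402 CPM in the former and at 71.3, 51.9 and 38.9 CPM in the latter in naïve, sham and SCI blood, NKG7 at 1759, 1161 and 3203 against 818, 577 and 544 CPM, and CST7 at 608, 306 and 738 against 253, 81.8 and 74.5 CPM. GZMM went the other way, with 288, 132 and 287 CPM against 693, 581 and 569.6 CPM. The co-detection of PRF1, NKG7, CST7 and GZMM with the grouping genes had been seen in the same cells. These values therefore add no separate support for the grouping. Of the 32 genes in the list above, 8 had a higher and 3 a lower CPM in the GZMB group in all 3 libraries, 13 were mixed and 8 had under 60 UMIs in the 3 libraries together. The share of all genes that were higher or lower in all 3 libraries was not computed. These counts therefore have no background beside them, and whether they exceed those of other genes was not tested. HOPX was at 399.8, 102 and 605 CPM against 4.76, 8.65 and 14.6 CPM and ZNF683 at 239.9, 132 and 300.4 against 7.61, 5.51 and 9.31 CPM; both encode transcription regulators of effector and tissue-resident lymphocytes. CX3CR1, a chemokine receptor of effector cells, stood at 144, 61.1 and 225 against 23.8, 4.72 and 3.64 CPM. The genes lower in all 3 were EOMES, BCL11B and TCF7, of which EOMES rested on 2, 3 and 12 UMIs. TCF7, a regulator of naïve and memory T cells, stood at 272, 387 and 340.2 against 769, 846 and 744 CPM. These are descriptions of cells within each library, with no test.

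The genes most like GZMB across unthinned CD8 T cells, by the mean over blood libraries of Pearson's r on log counts per 10000, were CCL4 (0.48), CX3CR1 (0.47), LAG3 (0.39), HOPX (0.37) and CCL5 (0.35), out of 6756 genes considered. Of the members, GZMH (0.83) and GNLY (0.66) stood above all of these, and GZMK (0.03) and GZMM (-0.12) far below. Those most like GZMK were LYAR (0.39), PLAC8 (0.31), GPR183 (0.30), IFNG-AS1 (0.25) and IL7R (0.23), all weak, with GZMA at 0.42 and GZMM at 0.32. Cells of 1 library share its preparation and differ in depth, and the values carry no p-value.

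Between the blood libraries, the levels of these genes in CD8 T cells mostly differed by less than 2-fold. In sham against naïve blood, 2 of the 10 genes were at least 2-fold lower, where 1.6% of all genes were, and none was 2-fold higher (1.43%). CST7 had 403 CPM in naïve and 181 CPM in sham blood (log2 ratio -1.15, interval -1.32 to -0.99) and FGFBP2 69.2 and 29.7 CPM (-1.21, -1.64 to -0.80). In SCI against naïve blood, FGFBP2 alone was 2-fold lower (34.0 CPM, log2 ratio -1.02, -1.37 to -0.67), where 1.82% of all genes were, with CST7 at 210.0 CPM (-0.94, -1.08 to -0.80) and PRF1 at 201 CPM in naïve and 113 CPM in SCI blood (-0.82, -1.02 to -0.63). In SCI against sham blood, 0 of the 10 genes were 2-fold apart, where 2.75% of all genes were. NKG7 differed most there, at 788 and 1027 CPM (log2 ratio 0.38, 0.31 to 0.46), and GNLY, GZMH, GZMK, PRF1 and FGFBP2 had intervals that included 0. No test between conditions could be made from single libraries, and sham against naïve and SCI against naïve blood share the naïve library.

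GZMB and GZMH stood above naïve blood in both operated groups, by less than 2-fold. GZMB had 93.1, 143 and 122 CPM in CD8 T cells of naïve, sham and SCI blood, with log2 ratios over naïve blood of 0.62 (0.36 to 0.88) and 0.39 (0.14 to 0.64). Its UMIs came from 41 of 733, 43 of 647 and 73 of 1279 cells, and 52 of the 361 UMIs of sham blood were in 1 cell. The intervals do not cover such spread between cells. GZMH had 119, 177 and 189 CPM, with log2 ratios of 0.57 (0.34 to 0.80) and 0.66 (0.45 to 0.87). Plasma cell markers, which were summed to 271 CPM in naïve and to 15.1 and 17.8 CPM in sham and SCI CD8 T cells, also moved with the naïve library, and their part in these ratios was not tested.

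In CD4 T cells, most of these genes lay higher in SCI than in sham blood. All 9 genes with enough counts had a log2 ratio above 0, 7 of them with an interval above 0 and GZMB (-0.43 to 2.38) and PRF1 (-0.09 to 0.54) with intervals that included 0, and 4 were at least 2-fold higher, where 1.66% of all genes were. GNLY had 60.3 CPM in naïve, 36.8 CPM in sham and 105 CPM in SCI blood (log2 ratio over sham blood 1.51, 1.26 to 1.76). NKG7 had 17.5, 8.60 and 32.3 CPM (1.90, 1.42 to 2.43), GZMK 52.7, 37.9 and 79.7 CPM (1.07, 0.82 to 1.33) and GZMH 1.53, 0.391 and 8.24 CPM (4.09, 2.45 to 7.49). The median log2 ratio of the 9 genes was 0.88, which is the value of GZMB, against -0.0029 over all genes. GZMA, at 420.4 and 653 CPM, had a log2 ratio of 0.63 (0.55 to 0.71) and was detected in 19.0% (16.6 to 21.5%) of thinned CD4 T cells of sham and 28.5% (25.8 to 31.2%) of SCI blood. For GNLY, 23 of 1043 sham and 42 of 1099 SCI cells had a UMI, and 93 of the 188 UMIs in sham blood and 48 of the 495 in SCI blood were in 1 cell. GZMH rested on 2 UMIs in sham and on 39 UMIs in 10 cells in SCI blood. For GZMB, the 8 UMIs of sham blood were in 1 cell, as were 13 of the 14 UMIs of SCI blood.

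The markers of other cells also differed between these CD4 T cell sums. Monocyte markers summed to 1923, 1431 and 141 CPM in CD4 T cells of naïve, sham and SCI blood, with a UMI in 6.71%, 5.75% and 2.73% of the cells. Their part in the difference was not tested. Relative to naïve blood, 1 of 8 genes was 2-fold higher in SCI blood (GZMH, where 1.58% of all genes were), and in sham blood 1 of 7 was 2-fold lower (NKG7, where 1.28% of all genes were).

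In FOXP3+ T cells, GZMK was 2-fold lower in SCI than in sham blood, 1 of the 6 genes with enough counts (2.6% of all genes), at 13.9 and 29.5 CPM (log2 ratio -1.04, -2.13 to -0.16), from 12 UMIs in 8 cells and 52 UMIs in 14 cells. CST7 had 93.1, 58.5 and 98.3 CPM in naïve, sham and SCI blood (log2 ratio of SCI over sham blood 0.75, 0.32 to 1.18). PRF1, at 71.0, 52.2 and 53.2 CPM, had intervals that included 0 in all 3 comparisons.

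The spinal cord library held only 15 CD8 T cells, in which 7 of the 10 genes were at least 2-fold higher than in SCI blood, where 16.5% of all genes were. The median log2 ratio of the 10 genes was 1.31, against 0.12 over all genes. GZMH had 189 CPM in SCI blood and 549.7 CPM in cord (log2 ratio 1.56, 1.05 to 2.00), GZMB 122 and 308 CPM (1.37, 0.67 to 1.94), and PRF1 113 and 282 CPM (1.34, 0.61 to 1.94). CST7 had 210.0 and 589.9 CPM (1.51, 1.02 to 1.93), GNLY 1657 and 4009 CPM (1.28, 1.10 to 1.44), NKG7 1027 and 2118 CPM (1.05, 0.81 to 1.27) and FGFBP2 34.0 and 93.9 CPM (1.56, 0.12 to 2.55). GZMK (0.33) and GZMA (0.53) were less than 2-fold higher, and GZMM was at 457 and 282 CPM (-0.67, -1.40 to -0.08).

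**Figure D5:**
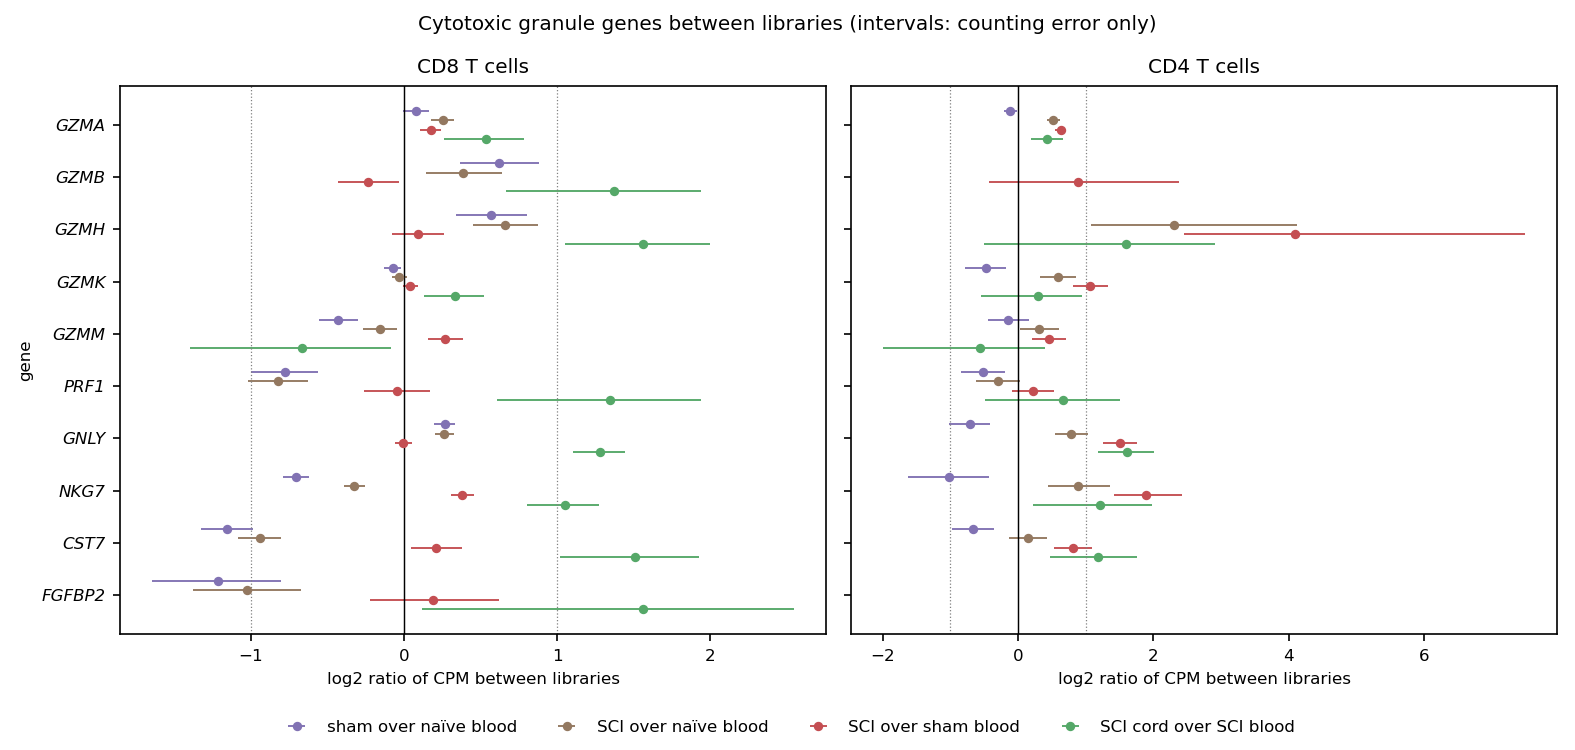
Log2 ratio of CPM between libraries for each gene in CD8 (left) and CD4 T cells (right), with conditional binomial intervals that cover counting error only; dotted lines mark a 2-fold difference and genes under 20 UMIs over both libraries are left out. In CD8 T cells the cord ratios of 7 genes lie above 1, and in CD4 T cells all SCI over sham blood ratios are above 0.

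These cord values rest on few cells. GZMB had 23 UMIs in 6 of the 15 cells, 11 of them in 1 cell, GZMH 41 UMIs in 7 cells, and GNLY 299 UMIs in 9 cells, 142 of them in 1 cell. FGFBP2 had 7 UMIs in 2 cells, 6 of them in 1 cell. After thinning, 8 of 15 cord CD8 T cells (26.6 to 78.7%) had GNLY, against 13.1% (11.3 to 15.0%) of those in SCI blood, and 11 of 15 (44.9 to 92.2%) had NKG7, against 32.5% (30 to 35.2%). The intervals did not overlap for GNLY and NKG7. They did for GZMB, with 3 of 15 cells (4.33 to 48.1%) against 3.99% (2.98 to 5.21%), and for PRF1, with 3 of 15 cells against 7.04% (5.70 to 8.58%), which does not show that the shares were alike. Without thinning, at median depths of 6727 UMIs in cord and 4374 UMIs in SCI blood, GZMB was found in 6 of 15 (16.3 to 67.7%) against 5.71% (4.50 to 7.12%) and PRF1 in 7 of 15 (21.3 to 73.4%) against 19.9% (17.8 to 22.2%). After thinning, 1 of the 15 cells (0.169 to 31.9%) had neither GZMK nor any gene of the GZMB group, against 31.1% (28.6 to 33.7%) in SCI blood. These intervals overlapped. Without thinning it was 1 of 15 cells against 17.7%. Basophil and mast cell markers, which summed to 1997 CPM in CD4 T cells and 3702 CPM in FOXP3+ T cells of cord, were at 0 in cord CD8 T cells. In the 25 CD4 T cells of cord, 4 of 8 genes were 2-fold higher than in SCI blood (11.8% of all genes), namely GNLY, GZMH, NKG7 and CST7. Of these, GNLY (105 and 319 CPM) had 47 of its 57 UMIs in 1 cell. GZMH had its 4 UMIs in 1 cell, and its interval (-0.50 to 2.91) included 0. NKG7 had 13 UMIs in 2 cells and CST7 23 UMIs in 8 cells. In the 13 FOXP3+ T cells of cord, the single GNLY-bearing cell held 40 UMIs, and GZMA had 2 UMIs. Of the 5 genes with enough counts there, GNLY was 2-fold higher than in SCI blood (9.54% of all genes) and GZMA 2-fold lower (10.1%). GZMM had 0 UMIs, which allows up to 25.9 CPM, against 23.1 CPM in SCI blood, so that no fold is given.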

How the data were processed

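Human CD45+ cells were profiled by 3' scRNAseq, in 1 library each for the 3 blood samples and the cord. The authors aligned the reads with Cell Ranger 3.1.0 to a joint human and mouse reference and deposited UMI counts per gene and barcode. The 10 genes and the gene lists were chosen with earlier results of these data known. Barcodes with over 50% human UMIs were kept if within 3 median absolute deviations for depth, genes and mitochondrial and ribosomal shares. Scrublet, run with an expected doublet share of 0.8% per 1000 barcodes, marked doublets, and those with over 3000 genes were removed. Classes were gated on at least 1 UMI. CPM leave out ribosomal and mitochondrial genes. Shares were computed after thinning to 1000 UMIs, with Clopper-Pearson intervals, and log2 ratios between libraries with 0.5 counts added, for genes with at least 20 UMIs over both libraries and with no test, since each condition has 1 library. Classes were tested on counts summed per library (edgeR 4.0.16, TMM, library as block, naïve, sham and SCI blood, adjusted p under 0.05). The block rests on the classes of a library coming from the same cell pool, and p-values measure the spread between 3 libraries only. All 10 genes are named, other genes from a list of 32 and the 5 genes most like GZMB and most like GZMK, sex-linked and receptor variable genes left out. Tested on simulated data for CD8 over CD4 T cells (10656 genes), the edgeR step recovered 41 of 100 genes changed 2-fold and 100 of 100 changed 4-fold. Alternatives included DESeq2 1.42.0, other gates, filters and scalings, and each library left out. Software was R 4.3.3, Python 3.11.15, scanpy 1.11.5 and scipy 1.17.1.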

Additional observations from a re-analysis of the deposited data

Results flagged for a closer look

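Some genes had ratios of opposite sign in different T cell classes, with intervals on opposite sides of 0. With 1 library per condition these differences were not tested. GNLY in sham over naïve blood had a log2 ratio of 0.27 in CD8 T cells, -0.71 in CD4 T cells and -0.61 in FOXP3+ T cells, where 93 of the 188 CD4 T cell UMIs and 56 of the 65 FOXP3+ T cell UMIs of sham blood were in 1 cell. GNLY in SCI over naïve blood had 0.26 in CD8 T cells and 0.79 in CD4 T cells against -0.78 in FOXP3+ T cells, from 28 UMIs in SCI blood. NKG7 in SCI over naïve blood had -0.32 in CD8 T cells and 0.88 in CD4 T cells, and GZMM -0.16 and 0.32. GZMK in SCI over sham blood had 1.07 in CD4 T cells and -1.04 in FOXP3+ T cells, the latter from 12 and 52 UMIs. GZMA in cord over SCI blood had 0.53 in CD8 T cells and 0.43 in CD4 T cells against -2.57 in FOXP3+ T cells, from 2 UMIs in cord.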

How the results depend on the processing

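Of the values for single genes, 738 counted as the same. For tested values this meant the same direction and side of the threshold. For ratios between libraries it meant a value within the main interval, which could still cross the 2-fold line. Of the others, 18 no longer passed the threshold, 5 newly passed it, 16 without a test moved beyond their interval and 5 reversed. All 10 genes were called higher in CD8 than in CD4 T cells also with each library left out (9 under DESeq2). Members called higher in FOXP3+ over CD4 T cells numbered 2, but 0 under DESeq2 (1 at an unadjusted p under 0.05), 0 by edgeR without the library block that pairs classes (2 at an unadjusted p under 0.05), 1 with SCI cord added and 1 to 2 with each library left out, PRF1 being lost without naïve or sham blood. Those lower numbered 3, but 8 without the low-count filter and 3 to 5 with each library left out. For NK over CD8 T cells, 5 were higher, but 3 under DESeq2, 3 with SCI cord added and 3 to 7 with each library left out, the 3 being without sham blood. The 2 lower genes became 1 without cells holding CD79A or MS4A1, 1 under DESeq2, 1 with total counts in place of TMM (chosen after seeing the data) and 1 to 2 with each library left out, the 1 being without SCI blood. In FOXP3+ T over B cells 0 were lower by edgeR (0 at an unadjusted p under 0.05, and 0 by DESeq2), but 1 without the low-count filter. Directions reversed in NK over CD8 T cells for GZMH (-0.77 without sham to 1.56 without SCI blood, -0.30 with SCI cord), GZMM (0.066 without cells holding CD79A or MS4A1, -1.28 without sham to 0.022 without SCI blood) and CST7 (-0.35 without sham to 1.48 without SCI blood). Members at least 2-fold apart in CD8 T cells between SCI and naïve blood numbered 1, but 0 with CD8 at 2 UMIs, 0 with TMM, 2 with all marked doublets removed and 2 with T cells holding CD79A or MS4A1 kept (chosen after seeing the data). The cause of these shifts was not tested. Depth limits the cord (15 CD8 T cells) and NK values.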
